A study of Bos taurus with 28 samples.

Results

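Estradiol given alone was compared with no hormone in the liver of ovariectomized cows. The comparison held the 7 arrays whose labels name estradiol as the only hormone (E2T) and the 7 arrays of untreated controls (CO), 14 of the 28 arrays of the series. The arrays were chosen by their labels, with no measured value, and all 24016 probe sets other than the control probe sets of the array were used. A probe set is a group of short probes for 1 transcript, and its signal is given here on the log2 scale, on which a difference of 1 is a doubling. Where a gene had several probe sets, the one with the highest mean signal over the 14 arrays stood for it, which gave 9155 genes with a symbol.

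Every cow was a non-lactating Holstein cow without ovaries, in both groups. E2T cows carried an ear implant that released estradiol-17β for 14 days before a liver biopsy, and CO cows were biopsied after 14 days without an implant. The study's methods describe a Latin square, in which each cow passed through the treatments in turn, so arrays of E2T and CO can come from the same animal. The labels number the arrays from 1 to 7 within each group but name no cow or period, so neither could be a term of the fit, and p-values measure only the spread between these arrays.

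Estradiol acts mainly through nuclear estrogen receptors, ESR1 and ESR2, which change transcription either from estrogen response elements in DNA or by way of other transcription factors such as AP-1. In liver, estrogens are known for changing the proteins that hepatocytes send into plasma: hormone-binding proteins, apolipoproteins, clotting factors and the binding proteins of the insulin-like growth factors. The liver also clears estradiol, by joining it to sulfate or glucuronic acid. In a biopsy of whole tissue, fewer cells of a type and less RNA per cell cannot be told apart.

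No probe set passed an adjusted p of 0.05 in the moderated test of limma (0 of 24016, 0%), and the smallest adjusted p was 0.115. Without adjustment, 1785 probe sets had a p under 0.05. All of these also differed between the groups by at least 25%, and this pair of limits is called the nominal criterion below. Of the probe sets that met it, 350 (1.46%) had higher signals in E2T and 1435 (5.98%) had lower signals. Among genes, 156 (1.70%) met it with higher and 462 (5.05%) with lower signals in E2T. These 2 shares are the background for every count of a gene group below that comes from this fit. Other fits had other totals over all genes, and the closing section on processing gives those that moved. Because nothing passed the adjusted test, each gene below is described by its values. An exact p is that of a two-sided exact permutation test of 1 gene over all 3432 splits of the 14 arrays, whose smallest possible value is 0.000583. It is not adjusted for the 198 genes so tested, and 21 of the 95 among them that met the nominal criterion had an exact p over 0.05. Many of the 198 were chosen for a low limma p on these same 14 arrays, so a small exact p adds no support for them. Among the named genes, the adjusted p of limma was 0.665 or higher except where another value is given. The alternative fits of a named gene are those of its own probe set, so none of them averages the probe sets of a symbol.

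The excess of lower signals in E2T depended on how bright a probe set was. The probe sets were put in 4 classes of 6004 by mean signal, class 1 the dimmest and class 4 the brightest. In class 1 the median log2 fold change of E2T over CO was -0.60, and 19 probe sets met the nominal criterion higher against 569 lower. In class 2 the median was -0.32, and in class 3 it was -0.10. In class 4 the median was 0.05, with 220 higher against 136 lower. Quantile normalization of the 14 arrays moved the median of all probe sets from -0.15 to 0.02 on the log2 scale and gave 580 higher against 642 lower. Median centring of each array moved it to 0.12 and gave 1365 higher against 627 lower. The split of higher against lower signals thus changed with the scaling, and genes of class 4, where 118 of 3847 (3.07%) met the criterion higher and 101 (2.63%) lower, give a second background for the gene groups that lie there.

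Measures of whole arrays also stood apart on some of them. The 10th percentile of log2 signal lay between 3.38 and 4.36 in E2T arrays, with a median of 3.43, and between 3.43 and 5.15 in CO arrays, with a median of 3.85 (two-sided exact permutation test over 3432 splits, p = 0.0559, adjusted p = 0.149 over 8 measures). The brightest 1% of probe sets took 29.4 to 36.4% of the total signal in E2T arrays and 34.5 to 38.9% in CO arrays (exact permutation p = 0.0117, adjusted p = 0.0932). The hybridisation spikes, labelled transcripts added in known amount before hybridisation, averaged 13.30 to 15.64 in E2T and 14.30 to 16.46 in CO, and in both groups the highest value was that of array number 3. None of these measures passed the adjusted test, and their part in the results below was not tested beyond the alternatives that are named.

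**Figure D1:**
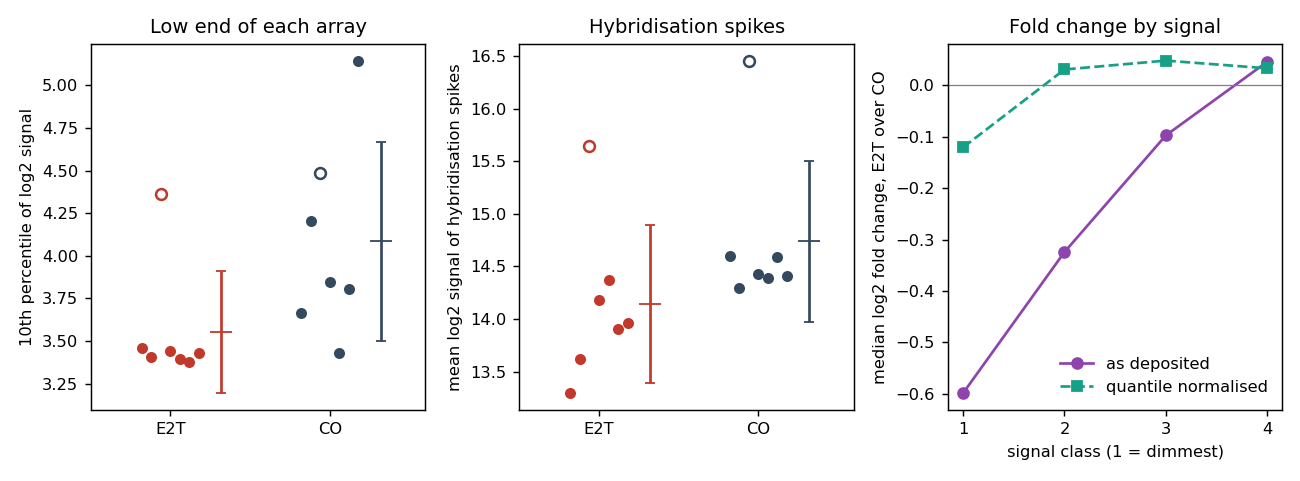
Left and middle: the 10th percentile of log2 signal and the mean log2 signal of the hybridisation spikes on each array, E2T (red) left of CO (dark blue), with array number 3 of each group as an open circle and bars for the mean ± SD (n = 7 each). Right: the median log2 fold change of E2T over CO in the 4 signal classes of probe sets, dimmest at the left, which runs from -0.60 in class 1 to 0.05 in class 4 as deposited and stays between -0.12 and 0.05 after quantile normalization.

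Markers of the labelled tissue were bright. The 20 measured hepatocyte markers, plasma proteins and liver enzymes such as albumin (ALB), averaged 15.04 to 15.49 in E2T arrays and 15.09 to 15.59 in CO arrays, and 19 of the 20 lay in class 4. ALB itself spanned 16.79 to 17.93 in E2T, with a median of 17.21, and 17.20 to 18.16 in CO, with a median of 17.42. Its log2 fold change was -0.30 ± 0.28 (SE) with an adjusted p of 0.78, and it was 0.08 after quantile normalization. None of the 20 hepatocyte markers met the nominal criterion, and their median log2 fold change was -0.15, or 0.07 after quantile normalization. Markers of muscle, fat and kidney averaged between 5.37 and 7.79 over the 14 arrays.

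The receptors through which estradiol acts, ESR1 and ESR2, had mean signals below 7.61, the median over all probe sets. ESR1, the main estrogen receptor of hepatocytes, had 2.14 to 5.02 in E2T arrays, with a median of 3.25, and 3.09 to 6.06 in CO arrays, with a median of 5.29. The groups overlapped, and the log2 fold change of -1.08 ± 0.74 had an exact p of 0.124. ESR2, the second estrogen receptor, spanned 1.68 to 7.98 in E2T and 3.99 to 8.16 in CO, with a log2 fold change of -0.94 ± 0.89. PGR, the progesterone receptor and a standard estrogen target in the uterus, had 4.27 to 8.07 in E2T, with a median of 6.15, and 6.04 to 7.82 in CO, with a median of 7.52. Its log2 fold change was -1.02 ± 0.53 (exact p = 0.0629), although 1 E2T array lay above every CO array. ESR1 lay in signal class 1 and PGR in class 2, in which the median of all probe sets was -0.60 and -0.32. Of the 20 measured receptors and coregulators, 0 met the nominal criterion higher and 1 lower. That 1 was NR0B1, an orphan nuclear receptor that represses steroid synthesis, with a log2 fold change of -1.70 ± 0.82 (exact p = 0.0746), and after quantile normalization it no longer met the criterion.

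Among known targets of estrogen, the counts lay near the shares of all genes. Of 32 measured estrogen-responsive genes of liver and other tissues, 0 met the nominal criterion higher and 2 (6.25%) lower. The shares of all genes were 1.70% and 5.05%. The median log2 fold change of the list was 0.02, against -0.07 over all genes and 0.04 over genes of class 4, where 21 of the 32 lay. The median was 0.08 after quantile normalization, 0.29 after median centring, with 25 of the 32 above 0, and -0.11 with the spike level as a covariate. Array weights gave 3 higher and 5 lower, in a fit where 611 of all genes were higher and 937 lower. The list mean was 10.76 to 11.27 in E2T arrays and 10.85 to 11.59 in CO arrays. The 2 were LPIN1, a phosphatidate phosphatase, and TFF3, a trefoil peptide of mucous epithelia, and neither met it after quantile normalization. Angiotensinogen (AGT), which rises under estrogens in humans, had 13.80 to 14.72 in E2T and 13.37 to 14.96 in CO, with a log2 fold change of 0.16 ± 0.24 (exact p = 0.513). SERPINA6, the cortisol-binding globulin, spanned 10.48 to 13.11 in E2T and 11.33 to 12.99 in CO, with -0.43 ± 0.31. For APOB the log2 fold change was -0.02 ± 0.21, for APOA1 it was -0.08 ± 0.24, and for CYP7A1, the first enzyme of the main route of bile acid synthesis, it was 0.21 ± 0.34. Among 24 genes of apolipoproteins and lipoprotein handling and 18 of bile acid synthesis and transport, none met the nominal criterion.

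In the growth hormone and insulin-like growth factor (IGF) axis, the genes that met the nominal criterion were binding proteins. IGFBP2 binds IGFs in plasma and is known to fall when insulin signals are strong. It had 10.11 to 12.28 in E2T arrays, with a median of 11.25, and 11.10 to 13.62 in CO arrays, with a median of 12.63. All 7 E2T arrays lay below the CO mean and 2 lay below every CO array. IGFBP2 had a log2 fold change of -1.13 ± 0.37, a 2.19-fold lower signal (exact p = 0.0309, adjusted p = 0.665), and it was -1.18 after quantile normalization. IGFBP6, a binding protein with a preference for IGF2, had 8.95 to 10.08 in E2T, with a median of 9.50, and 9.28 to 10.75 in CO, with a median of 10.26. All 7 E2T arrays were again below the CO mean, and the log2 fold change was -0.63 ± 0.24 (exact p = 0.0268). IGFBP3, the main carrier of IGFs in plasma, went the other way, with 13.44 to 14.37 in E2T (median 14.01) and 12.70 to 13.95 in CO (median 13.63). Here 4 E2T arrays exceeded every CO array, and the log2 fold change was 0.46 ± 0.21 (exact p = 0.039), but 7 of the 14 fits that each left out 1 array no longer met the criterion. A second IGFBP3 probe set had a log2 fold change of 0.54.

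The hormone IGF1, the receptor GHR and the binding protein IGFBP1 did not separate. IGF1 had 8.98 to 10.19 in E2T and 9.16 to 10.20 in CO, and its log2 fold change was -0.10 ± 0.23 (exact p = 0.652). Its 3 other probe sets had 0.21 to 0.38. GHR, the growth hormone receptor, had a log2 fold change of 0.56 ± 0.41 at its brightest probe set, and its 10 other probe sets ranged from -1.98 to 1.03. IGFBP1, an insulin-suppressed binding protein made by hepatocytes, spanned 7.43 to 8.86 in E2T and 5.02 to 9.41 in CO, with 0.94 ± 0.64 (exact p = 0.232). Of the 21 measured genes of the axis, 1 met the nominal criterion higher and 2 lower, the 3 binding proteins named above. Their median log2 fold change was 0.08 as deposited, 0.35 after median centring and -0.08 with the spike level as a covariate.

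Acute phase proteins, which hepatocytes release during inflammation, had more members with lower signals in E2T than any other of the 28 pathway lists. Of 29 measured members, 0 met the nominal criterion higher and 7 lower, which is 24.1% of the list against 5.05% of all genes and 2.63% of genes of class 4, where 26 of the 29 lay. Haptoglobin (HP), the most strongly induced acute phase protein of cattle, had 7.69 to 12.81 in E2T arrays, with a median of 10.74, and 8.71 to 16.79 in CO arrays, with a median of 13.91. Each of the 7 E2T arrays was below the CO mean, but the CO arrays themselves were far apart and the lowest of them lay under 6 of the 7 E2T arrays. HP differed by a log2 fold change of -2.82 ± 0.98, a 7.06-fold lower signal (exact p = 0.0589, adjusted p = 0.665). SAA3, a serum amyloid A made in response to inflammatory cytokines, had 9.23 to 11.46 in E2T (median 10.13) and 9.76 to 12.27 in CO (median 11.35), with a log2 fold change of -1.03 ± 0.37 (exact p = 0.0542).

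Other members had narrower spreads. ITIH3, a heavy chain of the inter-alpha-trypsin inhibitors, had 14.80 to 15.96 in E2T (median 14.95) and 15.31 to 16.63 in CO (median 15.71). In 6 of the 7 E2T arrays it lay below every CO array, and the exception was number 3, at 15.96. The log2 fold change was -0.70 ± 0.24 (exact p = 0.00932). C4BPA, an inhibitor of the complement cascade, had 15.26 to 16.23 in E2T (median 15.88) and 16.08 to 17.12 in CO (median 16.41), and 5 E2T arrays lay below every CO array. Its log2 fold change of -0.63 ± 0.24 (exact p = 0.00291) became -0.37 after quantile normalization and then missed the criterion. The remaining 3, named because they complete the count, were ITIH4 at -0.61 ± 0.24, IL1RN (the antagonist of the interleukin-1 receptor) at -0.82 ± 0.35 and LBP (the binding protein of bacterial lipopolysaccharide) at -0.87 ± 0.40. IL1RN missed the criterion in 7 and LBP in 9 of the 14 fits without 1 array. The scaling mattered for the list as a whole, since its median log2 fold change was -0.30 as deposited, -0.01 after quantile normalization and -0.03 after median centring. After quantile normalization 6 members were lower, when 260 of all genes were. After median centring 1 member was lower, when 143 of all genes were. The mean log2 signal of the list was 13.82 to 14.23 in E2T arrays and 13.94 to 14.66 in CO arrays, and it overlapped. Macrophage and Kupffer markers, the resident source of the cytokines that drive these genes, had 0 of 12 members meeting the criterion, and their list mean was 10.69 to 11.87 in E2T and 10.98 to 12.26 in CO.

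Complement and coagulation genes, also made by hepatocytes, were counted in the same way. Of 30 complement genes, 2 (6.67%) were lower (C4BPA and C4A) and 0 higher. The share lower was 5.05% of all genes and 2.63% of class 4, where 27 of the 30 lay. C4A, which encodes the fourth complement component, had 15.49 to 15.83 in E2T and 15.54 to 16.80 in CO, with -0.56 ± 0.22 (exact p = 0.0035), and missed the criterion after quantile normalization at -0.37. Of 27 coagulation and fibrinolysis genes, 1 was lower, a share between the 2.63% of class 4 and the 5.05% of all genes. That gene was not a plasma factor but THBD, the thrombin receptor of endothelial cells. THBD had 8.22 to 9.40 in E2T (median 8.52) and 8.79 to 10.14 in CO (median 9.05), and 5 of the 7 E2T arrays lay below every CO array (log2 fold change -0.74 ± 0.27, exact p = 0.0146). The list medians were -0.08 for complement and -0.16 for coagulation as deposited, both were above 0 after median centring, at 0.19 and 0.11, and that of complement was 0.04 after quantile normalization.

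**Figure D2:**
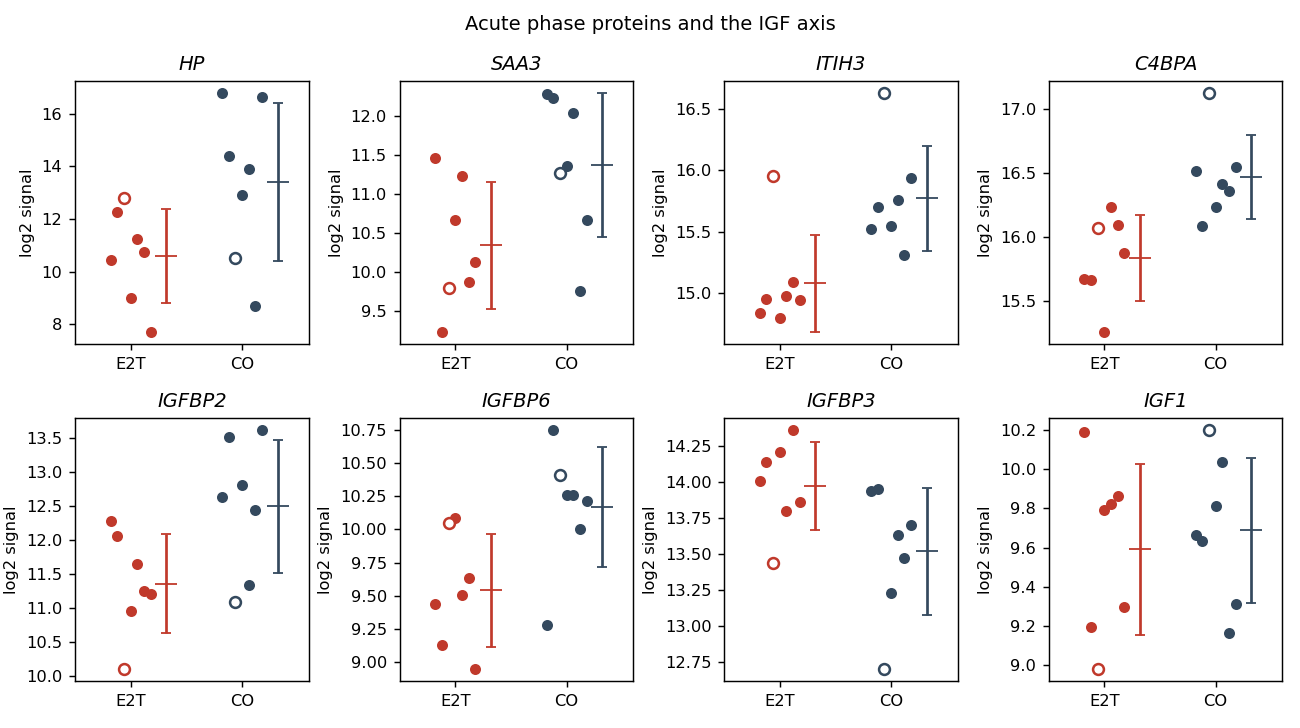
Log2 signal of 4 acute phase proteins (top) and 4 genes of the IGF axis (bottom) on each array, E2T (red) left of CO (dark blue), with array number 3 of each group as an open circle and bars for the mean ± SD (n = 7 each). HP spans 7.69 to 12.81 in E2T and 8.71 to 16.79 in CO, 6 E2T arrays of ITIH3 lie below all CO arrays, and IGF1 overlaps throughout.

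Genes of oxidative phosphorylation had the most members with higher signals in E2T among the 28 pathway lists. The respiratory chain passes electrons through complexes I to IV of the inner mitochondrial membrane, and ATP synthase uses the proton gradient so formed. Of 37 measured subunits of complex I, 7 met the nominal criterion higher and 0 lower (18.9% against 1.70% of all genes and 3.07% of class 4, where all 37 lay), and 32 had a log2 fold change above 0. Complexes II to IV with cytochrome c had 4 of 23 higher, ATP synthase had 3 of 17 higher and the mitochondrial ribosome 3 of 65, with 0 lower in each. The median log2 fold changes were 0.21 for complex I, 0.17 for complexes II to IV, 0.35 for ATP synthase and 0.14 for the mitochondrial ribosome, against -0.07 over all genes and 0.04 over genes of class 4. All 4 medians stayed above 0 after quantile normalization and after median centring.

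NDUFC1, an accessory subunit of complex I, had 11.15 to 12.32 in E2T arrays, with a median of 11.999, and 10.71 to 11.74 in CO arrays, with a median of 11.28. In 6 E2T arrays it exceeded every CO array, and only number 3 did not. NDUFC1 had a log2 fold change of 0.65 ± 0.20, or 1.57-fold (exact p = 0.00758, adjusted p = 0.665), and it met the nominal criterion in every alternative fit run. NDUFA2, another accessory subunit, showed the same separation of 6 arrays, with 12.04 to 12.999 in E2T and 11.76 to 12.45 in CO (0.43 ± 0.18, exact p = 0.014). NDUFA1 had 13.86 to 14.74 in E2T and 13.12 to 14.75 in CO, with a log2 fold change of 0.64 ± 0.23, and all 7 E2T arrays were above the CO mean. NDUFA6 had 12.93 to 13.60 in E2T and 12.18 to 13.34 in CO (0.46 ± 0.19, exact p = 0.0128). ATP5MC3, which encodes subunit c of the membrane ring of ATP synthase, had 11.95 to 13.79 in E2T (median 13.50) and 11.86 to 12.999 in CO (median 12.88), with 6 E2T arrays above every CO array (0.67 ± 0.25, exact p = 0.0414). ATP5PD, of the peripheral stalk, had a log2 fold change of 0.65 ± 0.28 with 6 E2T arrays above every CO array (exact p = 0.0589). ATP5F1E, of the central stalk, had 0.48 ± 0.22 with 5 (exact p = 0.0589). ATP5PD missed the criterion in 5 and ATP5F1E in 8 of the 14 fits without 1 array.

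In complexes III and IV, COX6A1 had a log2 fold change of 0.57 ± 0.24 (exact p = 0.0495) and UQCRB 0.81 ± 0.35 (exact p = 0.0886). However, a second probe set of each went against it, at -1.70 and -0.06. COX7C had 14.12 to 14.85 in E2T and 13.52 to 14.88 in CO (0.51 ± 0.22). UQCRC2, with 0.56 ± 0.25 (exact p = 0.0839), missed the criterion in 10 of the 14 fits without 1 array. MRPL49, a protein of the large mitochondrial ribosomal subunit, was among the 4 probe sets (0.0167% of all) whose 7 E2T values all lay above the 7 CO values. It had 10.31 to 10.73 in E2T and 9.76 to 10.30 in CO, a difference of 0.36 ± 0.17 (exact p = 0.000583). Its unadjusted limma p was 0.0461, and it missed the criterion in 8 of the 14 fits without 1 array. MRPL11 had 0.59 ± 0.23 and MRPL52 0.52 ± 0.22.

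Array number 3 stood apart in these genes. On it, in both groups, the mean of the complex I genes was the lowest, at 11.56 in E2T and 11.42 in CO, and the other 6 E2T arrays lay within 12.21 to 12.47, while the other 6 CO arrays spread over 11.70 to 12.40. The same 2 arrays had the highest hybridisation spikes. Without E2T number 3, complex I had 10 members higher and ATP synthase 8, when 483 of all genes were higher, against 156 with all 14 arrays. Without CO number 3 the counts of these lists were 2 and 2, and genes that met the criterion in either direction fell from 618 to 446. With both number 3 arrays left out the counts of the lists were 9 and 4, with medians of 0.25 and 0.34, and 329 of all genes were higher. With the spike level as a covariate, 2 complex I and 0 ATP synthase members met the criterion higher, with medians of 0.02 and 0.05. In that fit the medians of complexes II to IV and of the mitochondrial ribosome were below 0, at -0.05 and -0.02. It had 475 genes that met the criterion in either direction, against 618 without the covariate. The cytosolic ribosome, by comparison, had 0 of 63 members and the proteasome 0 of 37 that met the criterion in either direction.

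**Figure D3:**
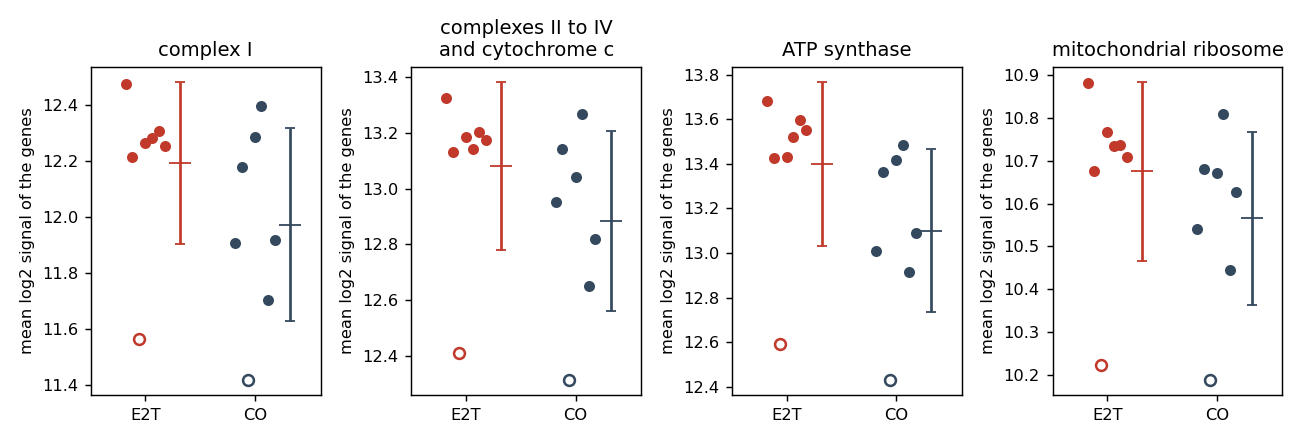
Mean log2 signal of the genes of complex I (37), complexes II to IV and cytochrome c (23), ATP synthase (17) and the mitochondrial ribosome (65) on each array, E2T (red) left of CO (dark blue), with array number 3 of each group as an open circle and bars for the mean ± SD (n = 7 each). For complex I, 6 E2T arrays lie within 12.21 to 12.47 and number 3 at 11.56, with the CO arrays between 11.42 and 12.40.

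In lipid synthesis, the list mean was 9.95 to 10.34 in E2T arrays and 10.13 to 10.64 in CO arrays, and 0 of the 7 E2T arrays lay above the CO median. Of 32 measured genes of fatty acid synthesis, desaturation and triglycerides, 1 met the nominal criterion higher and 4 lower, and the median log2 fold change was -0.02 as deposited and 0.25 after median centring. AGPAT1, which makes phosphatidic acid on the way to triglycerides and phospholipids, had 8.36 to 9.87 in E2T arrays, with a median of 9.31, and 9.68 to 10.57 in CO arrays, with a median of 10.22. Of the 7 E2T arrays, 6 lay below every CO array. For AGPAT1 the log2 fold change was -0.88 ± 0.25, a 1.84-fold lower signal (exact p = 0.00291), and it met the criterion in every alternative fit run. SREBF1, the transcription factor that drives fatty acid synthesis genes, had 10.47 to 12.02 in E2T (median 11.85) and 11.80 to 12.49 in CO (median 12.28), with all 7 E2T arrays below the CO mean. Its log2 fold change was -0.60 ± 0.23 (exact p = 0.0157), and its 3 other probe sets ranged from -0.85 to -0.23. FASN, the fatty acid synthase and a target of SREBF1, had 9.55 to 11.49 in E2T and 10.49 to 11.91 in CO (-0.64 ± 0.28, exact p = 0.0664). It is named to complete the count, and it missed the criterion in 5 of the 14 fits without 1 array. LPIN1 had -1.83 ± 0.76 and a single E2T array at a log2 signal of 1.00. ELOVL5, the elongase of polyunsaturated fatty acids, went the other way. It had 13.23 to 15.03 in E2T (median 14.41) and 12.77 to 13.99 in CO (median 13.69), 5 E2T arrays exceeded every CO array, and the log2 fold change was 0.76 ± 0.25 (exact p = 0.0204) and met the criterion in every alternative fit run.

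In cholesterol synthesis, 1 of 20 genes (5%) met the criterion higher and 2 (10%) lower. The shares were 1.70% and 5.05% of all genes, and 3.07% and 2.63% of class 4, where 18 of the 20 lay. After median centring 1 was higher and 0 lower. INSIG1 missed the criterion in 6 of the 13 other alternatives and in 4 of the 14 fits without 1 array, and LSS in 5 of these 14. PMVK, phosphomevalonate kinase, had a log2 fold change of -0.47 ± 0.19 (exact p = 0.0122), and INSIG1, the sterol-regulated anchor that holds SREBP precursors in the endoplasmic reticulum, had 11.73 to 13.78 in E2T and 12.74 to 14.75 in CO (-0.77 ± 0.32, exact p = 0.0763). LSS, which closes the sterol ring, had 10.21 to 11.81 in E2T and 9.64 to 11.33 in CO (0.63 ± 0.27, exact p = 0.0629), but its 2 other probe sets had -0.62 and 0.13. MVD, a later step of the mevalonate pathway, had -0.41 ± 0.21 (exact p = 0.0693). In fatty acid oxidation and ketogenesis, 1 of 28 genes met the criterion, BDH2, a dehydrogenase of ketone and siderophore metabolism. It had 10.33 to 11.996 in E2T (median 11.52) and 9.84 to 11.31 in CO (median 10.52), 4 E2T arrays exceeded every CO array, and the log2 fold change was 0.76 ± 0.26 (exact p = 0.0233). VLDLR, a receptor for triglyceride-rich lipoproteins, had -1.04 ± 0.56 (exact p = 0.101), with 3 other probe sets between -1.61 and -0.95.

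Among enzymes of amino acid and glucose metabolism, GLDC had the lowest limma p. GLDC, the decarboxylase of the mitochondrial glycine cleavage system, had 8.54 to 10.99 in E2T arrays, with a median of 9.70, and 7.63 to 9.59 in CO arrays, with a median of 8.15. All 7 E2T arrays were above the CO mean and 4 above every CO array. For GLDC the log2 fold change was 1.23 ± 0.36, or 2.35-fold (exact p = 0.0111, adjusted p = 0.665), and the nominal criterion was met in every alternative fit run. ASL, argininosuccinate lyase of the urea cycle, had 12.86 to 13.91 in E2T and 13.26 to 14.57 in CO (-0.55 ± 0.23, exact p = 0.042), but its second probe set had 0.06. These were the 2 of 36 genes of the urea cycle and amino acid breakdown that met the criterion. Of 31 genes of gluconeogenesis, propionate use and glycogen, 2 were higher and 1 lower. The lower one was PC, pyruvate carboxylase, the step that feeds lactate and alanine carbon into glucose, with 11.50 to 12.56 in E2T (median 11.77) and 11.84 to 12.79 in CO (median 12.35). In 5 E2T arrays it lay below every CO array, the log2 fold change was -0.51 ± 0.20 (exact p = 0.0286), and its 2 other probe sets had -0.86 and -0.70. The higher ones were PCCA, which carboxylates propionate, the main glucose precursor of ruminants, at 0.50 ± 0.23, and LDHA, lactate dehydrogenase, at 0.49 ± 0.23, and neither met the criterion after quantile normalization. PCK1, the cytosolic phosphoenolpyruvate carboxykinase, had 14.25 to 15.27 in E2T and 13.59 to 14.97 in CO (0.46 ± 0.23, exact p = 0.0688).

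Of the enzymes that clear steroids, 1 of 25 met the nominal criterion. UGT2B10, a glucuronosyltransferase, had 11.67 to 13.09 in E2T (median 12.54) and 11.10 to 12.56 in CO (median 11.63), with 3 E2T arrays above every CO array (0.62 ± 0.24, exact p = 0.0379). Genes of the UGT2B family are close in sequence, so its signal may hold that of relatives. SULT1E1, the estrogen sulfotransferase, had 7.09 to 10.32 in E2T (median 9.02) and 6.77 to 9.77 in CO (median 7.65). In 6 of 7 E2T arrays it was above the CO mean, and the log2 fold change of 0.91 ± 0.49 had an exact p of 0.141, and the nominal criterion was met in 4 of the 13 alternatives other than leaving out 1 array.

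**Figure D4:**
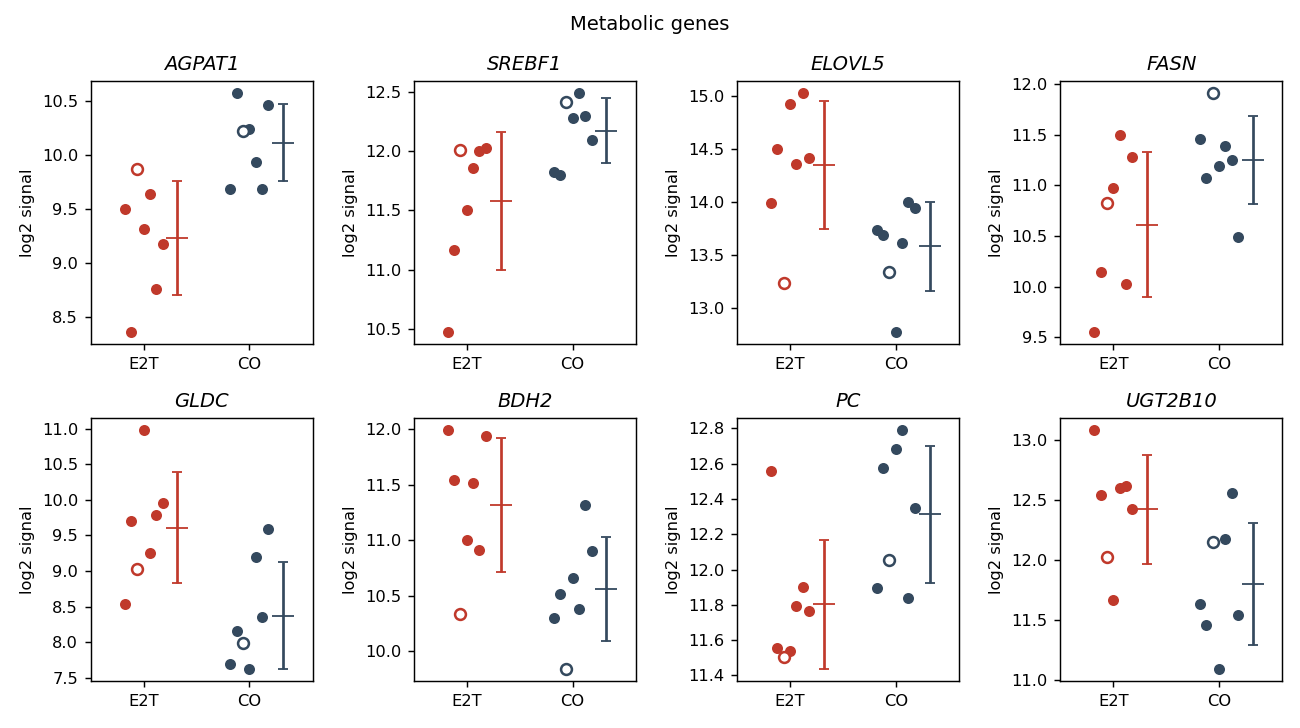
Log2 signal of 8 genes of lipid, amino acid, ketone, glucose and steroid metabolism on each array, E2T (red) left of CO (dark blue), with array number 3 of each group as an open circle and bars for the mean ± SD (n = 7 each). AGPAT1 lies below all CO arrays in 6 E2T arrays, and GLDC has a mean 1.23 log2 units higher in E2T with 3 arrays inside the CO range.

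Of cell cycle genes 11.4% and of interferon genes 9.09% met the criterion lower, against 5.05% of all genes. The number and direction of these members changed with the scaling. Of 35 cell cycle and proliferation genes, 4 were lower: UBE2C, a ubiquitin-conjugating enzyme of mitosis, at -1.64 ± 0.59, MCM3 of the replicative helicase at -0.74 ± 0.27, the checkpoint kinase BUB1B at -1.32 ± 0.54 and the mitotic kinase AURKA at -0.78 ± 0.34. Second probe sets of MCM3 and AURKA went against them, at 0.59 and 0.80. The list median was -0.31 as deposited, -0.11 after quantile normalization and -0.04 after median centring. After median centring 2 members were higher and 1 lower, when 688 of all genes were higher and 143 lower. BUB1B and AURKA missed the criterion after quantile normalization. Of 22 interferon-stimulated genes, 0 were higher and 2 lower as deposited, and 1 was higher and 0 lower after median centring. The 2 were both transcription factors of interferon signalling. IRF9 had 8.05 to 9.54 in E2T (median 8.85) and 8.79 to 10.44 in CO (median 9.58), with -0.71 ± 0.27 (exact p = 0.0198), and IRF7 had 8.74 to 9.76 in E2T and 8.81 to 11.52 in CO, with -0.72 ± 0.30 (exact p = 0.035). The mean of the interferon list was 8.53 to 9.89 in E2T arrays and 8.64 to 10.74 in CO arrays, and the top CO value came from number 2 alone, with the next at 9.22. Lymphocyte markers had 0 of 14 higher and 2 (14.3%) lower, and neither of the 2 met the criterion after quantile normalization. They were KLRK1 (a receptor of natural killer cells) at -1.32 ± 0.50 and CD3E (a chain of the T cell receptor complex) at -0.51 ± 0.23. The mean of the lymphocyte list was 7.90 to 8.58 in E2T and 8.17 to 8.92 in CO.

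Stress and signalling genes had 1 or 2 members each. JUNB, a component of AP-1, had 8.62 to 10.07 in E2T and 9.20 to 10.998 in CO (-0.71 ± 0.28, exact p = 0.0425), and KLF10, a TGF-beta inducible repressor, had 10.48 to 11.53 in E2T and 9.52 to 11.26 in CO (0.56 ± 0.24, exact p = 0.0344). These were the 2 of 24 AP-1 and immediate early genes. DNAJB11 and SDF2L1, partners of the chaperone HSPA5, had -0.73 ± 0.27 and -0.76 ± 0.32 and were the 2 of 38 endoplasmic reticulum genes. MT1A, a metallothionein, had 11.16 to 12.51 in E2T and 10.25 to 15.07 in CO (-1.21 ± 0.51, exact p = 0.0921), so that all 7 E2T arrays lay within the range of CO. TXN, thioredoxin, had 13.69 to 14.74 in E2T and 13.24 to 14.19 in CO (0.49 ± 0.21, exact p = 0.0233). Of 13 endothelial markers, 2 (15.4%) met the criterion lower and 2 (15.4%) higher, against 5.05% and 1.70% of all genes. KDR (-2.38 ± 0.85, exact p = 0.0221) and EGFL7 (-0.83 ± 0.37, exact p = 0.0746) were lower. LYVE1 (0.59 ± 0.26, exact p = 0.0728) and TIE1 (1.36 ± 0.61, exact p = 0.0466) were higher. EGFL7 missed the criterion in 4, LYVE1 in 7 and TIE1 in 10 of the 14 fits without 1 array. KDR lay in signal class 1 and its second probe set had 0.39. The mean of the endothelial list was 8.21 to 8.86 in E2T and 8.20 to 9.21 in CO. Stellate cell and fibroblast markers had 0 of 14 members past the criterion, but their list mean was 8.68 to 9.11 in E2T arrays and 8.16 to 9.03 in CO arrays, and all 7 E2T arrays lay above the CO median. Their median log2 fold change was 0.25 as deposited and 0.08 to 0.53 over the alternatives, and the part of these cells in the other results was not tested. Bile duct markers had 0 of 7 members past the criterion, with a list mean of 8.34 to 9.78 in E2T and 8.67 to 9.49 in CO.

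Over the whole array, the lowest p belonged to 2 genes that were chosen after their values were seen. ADGRL3, an adhesion G protein-coupled receptor known from brain, had 5.13 to 6.82 in E2T arrays, with a median of 6.14, and 7.77 to 8.87 in CO arrays, with a median of 8.33. The groups did not overlap. The log2 fold change was -2.36 ± 0.39 with an adjusted p of 0.115, and its 2 other probe sets had -0.58 and 0.47. LOC781977, a locus without a gene name in the annotation, had 7.50 to 8.59 in E2T (median 8.34) and 3.87 to 6.62 in CO (median 5.50), again without overlap, with 2.77 ± 0.50 and an adjusted p of 0.162. Both lay in signal class 2. The probe sets whose E2T values all lay below the CO values numbered 25 (0.104%), and 11 after quantile normalization. One of the 25 belonged to INSR, the insulin receptor, with -1.72, whereas the brightest INSR probe set had 0.49 ± 0.45.

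Among genes with a signal at or above the median of the array, the lowest p with higher signals in E2T belonged to RHNO1, a protein of the DNA damage checkpoint, with 9.33 to 10.13 in E2T (median 9.43) and 8.10 to 9.37 in CO (median 8.50). In 6 E2T arrays it exceeded every CO array (0.87 ± 0.25, exact p = 0.00233). MAPK6, an atypical MAP kinase, was without overlap, at 13.63 to 14.02 in E2T and 12.93 to 13.61 in CO (0.51 ± 0.17, exact p = 0.000583), and its 2 other probe sets had 1.19 and 1.24. SH3BGRL2 had 0.77 ± 0.23, the peptidyl-prolyl isomerase PPIA had 0.74 ± 0.23 and the co-chaperone DNAJA1 had 0.81 ± 0.26. On the lower side, MAPK12, a p38 kinase known from muscle, led, with 8.26 to 10.34 in E2T (median 8.87) and 9.31 to 10.65 in CO (median 10.27). In 6 E2T arrays it lay below every CO array, the exception being number 3. The log2 fold change was -1.21 ± 0.29 (exact p = 0.00524), and its second probe set had -1.27. ARHGAP31, a GTPase-activating protein for small G proteins, had 7.18 to 7.51 in E2T and 7.68 to 8.63 in CO without overlap (-0.92 ± 0.29, exact p = 0.000583). RMI2, of a complex that dissolves recombination intermediates, had -1.78 ± 0.50, the smooth muscle protein SMTN had -0.95 ± 0.29 and POLD1, the catalytic subunit of DNA polymerase delta, had -1.04 ± 0.33. These 10 genes each met the nominal criterion in every alternative fit run.

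The study names a set of genes for estradiol, of which 31 were measured, and at the probe set of highest signal 13 met the nominal criterion higher and 6 lower. The study chose them on E2T and CO arrays of this experiment, a set that was larger than the one analysed here, and they are no independent evidence of a direction. ADRB3, the adrenergic receptor of fat, had 4.91 to 7.67 in E2T and 7.67 to 9.04 in CO (-1.73 ± 0.46), CORO2A, an actin-binding protein, had -1.84 ± 0.50, and EFEMP2, an elastic fibre protein, had 6.65 to 8.46 in E2T and 3.05 to 6.96 in CO (1.86 ± 0.58). All 3 lay in signal class 2. The other 12 did not meet the criterion and had log2 fold changes from -0.61 to 0.96. Among these, SECTM1 had -0.56 ± 0.78, RHOB 0.39 ± 0.26, MYPN -0.45 ± 0.91, CDK2 -0.09 ± 0.22 and PPP2R5E -0.08 ± 0.30. The study lists SECTM1, CDK2 and PPP2R5E as raised and RHOB and MYPN as lowered by estradiol. It does not name its probe sets, which may differ from those of highest signal used here. PPARD, which the study lists as lowered, had -0.50 at the probe set of highest signal and -1.96 without overlap at another.

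Estradiol was also given to cows that carried a progesterone device, and the 7 arrays with both hormones (E2P4T) against the 7 with progesterone alone (P4T) measure an estradiol difference on arrays that share none with E2T and CO, although the cows may be the same. P4T number 4 and E2P4T number 5 had the highest hybridisation spikes of the series, at 17.49 and 18.44, and values are given without them unless stated. No probe set passed an adjusted p of 0.05 in that comparison (limma), with or without the 2 arrays, and without them 354 probe sets were higher and 297 lower by the nominal criterion. Of the 156 genes higher in E2T, 81 (51.9%) had a log2 fold change above 0 in E2P4T over P4T, against 49.4% of all 3827 genes above 0 in E2T over CO. Of the 462 genes lower in E2T, 261 (56.5%) were below 0, against 53.2% of all 5328 such genes. With the 2 arrays included, the counts were 106 (67.9%, against 58.6%) and 255 (55.2%, against 52.4%).

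Among the named genes higher in E2T by the criterion, 11 of 33 kept that sign in E2P4T over P4T, so most did not. Among the named genes lower in E2T, 28 of 43 kept it. HP had -0.50 ± 1.32 in E2P4T over P4T, IGFBP2 had -0.38 ± 0.26, IGFBP3 0.16 ± 0.16 and SAA3 0.23 ± 0.23. NDUFC1 had -0.07 ± 0.18, ATP5MC3 -0.04 ± 0.19, AGPAT1 -0.07 ± 0.19, ELOVL5 -0.21 ± 0.16 and GLDC -0.10 ± 0.36. FASN and VLDLR had values near those of E2T over CO, at -0.68 ± 0.35 and -1.19 ± 0.66, and JUNB had -0.49 ± 0.24. The medians of the lists were -0.07 for complex I, -0.04 for ATP synthase and -0.01 for acute phase proteins. With the 2 arrays included these medians were 0.16, 0.23 and -0.70, each with the sign it had in E2T over CO. Hepatocyte markers then had a median of -0.75, against 0.00 without the 2 arrays. The difference between the 2 estradiol effects, tested as an interaction over the 4 groups, passed an adjusted p of 0.05 for 0 probe sets (limma, 872 at an unadjusted p under 0.05 over all arrays and 1105 without the 2 arrays).

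**Figure D5:**
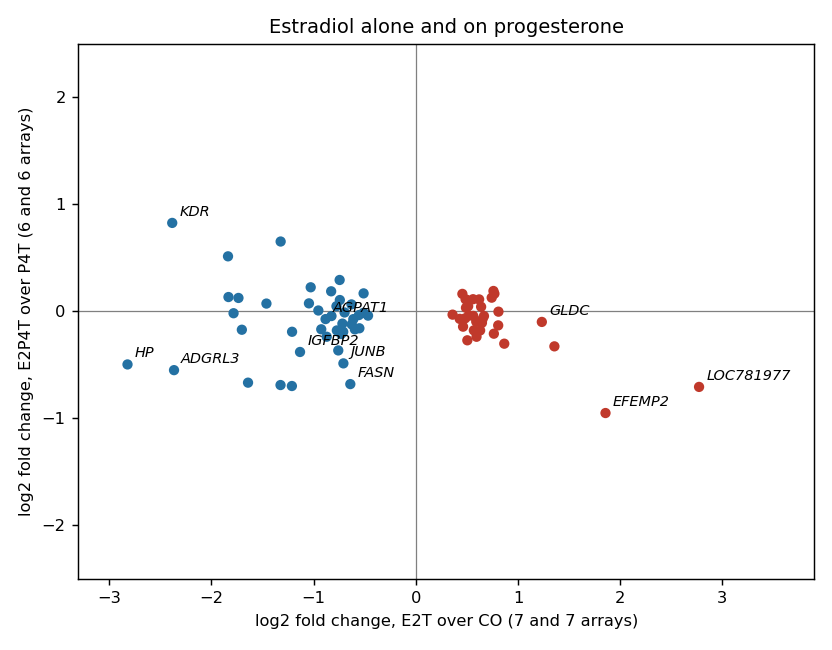
Log2 fold change of E2P4T over P4T (vertical, 6 and 6 arrays) against that of E2T over CO (horizontal, 7 and 7 arrays) for the 76 genes named here that met the nominal criterion, 33 higher (red) and 43 lower (blue) in E2T. On the vertical axis 11 of the 33 and 28 of the 43 have the same sign, and the points lie between -0.95 and 0.83.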

How the data were processed

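Liver mRNA was measured on Affymetrix bovine arrays. The deposited table holds signal intensities that the authors made with MAS5, which scales each array to a common trimmed mean, with no detection calls, and a log2 of these deposited intensities was taken here without further scaling. Per the labels, 7 arrays were E2T and 7 CO, a number that sets the precision, and these 14 alone entered the fit. The 112 control probe sets were left out of tests. R 4.3.3 and limma 3.58.1 (lmFit, eBayes with a variance trend) gave two-sided p-values, adjusted by Benjamini and Hochberg over 24016 probe sets, and the code was tested on simulated data. Of these probe sets, 13292 had exactly 1 symbol, and 13263 of them matched a RefSeq gene by Entrez ID. Gene groups were 37 lists of symbols. The members and lists were chosen with earlier results of these data known.

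Named genes were, among genes at or above the median signal with a fold of at least 1.25, the 12 of lowest p in each direction, up to 4 members of lowest p per list, a set of hepatic genes fixed whatever their values and those the study lists. ITIH4, IL1RN, LBP, FASN, ADGRL3, LOC781977, INSR and ESR2 were chosen after their values were seen. A mixed model with random cow and period, as in the methods, could not be fitted from the labels. Exact permutation tests of the named genes were added after seeing the data. Alternatives were other samples in the fit, quantile normalization, median centring, log2 of signal plus 50, 2 filters, ordinary variance, array weights, a hybridisation spike covariate, a replicate block and leaving out each array. The mean over probe sets of a symbol was used for the totals of genes only, and not for named genes. Leaving out both arrays numbered 3, and these with CO number 7, was chosen after seeing the data.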

Additional observations from a re-analysis of the deposited data

Results flagged for a closer look

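A sample was set apart where the gap to its nearest neighbour took more of the range of its group than Dixon's 95% critical value for 7 samples. Of 234 sets of 7 values compared, 39 were set apart, 29 in E2T and 10 in CO, where chance gives about 1 in 20. Array number 3 was the one set apart in 28 of the 39.

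In E2T, number 3 had the lowest log2 signal of NDUFC1 (11.15), NDUFA2 (12.04), COX6A1 (12.05), ATP5MC3 (11.95), ATP5PD (12.65), ATP5F1E (13.18), LSS (10.21), PPIA (11.10) and RMI2 (4.04). It had the lowest mean of the complex I genes (11.56), of complexes II to IV (12.41), of ATP synthase (12.59), of the mitochondrial ribosome (10.22) and of complement (13.14). It had the highest signal of ITIH3 (15.96), DNAJB11 (10.33), SDF2L1 (10.20) and MAPK12 (10.34). Its poly-A spikes (15.12), its difference of 3' over 5' GAPDH control signal (6.45), its median (8.22) and its 10th percentile of log2 signal (4.36) were the highest of E2T, and its 90th percentile (11.53) the lowest.

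Other E2T arrays set apart were number 6 for LPIN1 (1.00), PMVK (10.83) and AURKA (6.41), number 1 for PC (12.56) and KLRK1 (3.77), and number 5 for RHNO1 (10.13).

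In CO, number 3 was lowest for NDUFA2 (11.76), ATP5MC3 (11.86), MRPL11 (10.56) and MRPL49 (9.76) and had the highest hybridisation spikes (16.46). Number 6 was lowest for SDF2L1 (8.17), number 1 for SMTN (8.33) and for the poly-A spikes (3.64), number 2 was highest for the mean of the interferon genes (10.74) and number 7 for that of the growth hormone and IGF axis (10.49).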

How the results depend on the processing

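No probe set passed an adjusted p of 0.05 in the fits without 1 array, and the smallest adjusted p was 0.0809 to 0.36 over them. With log2 of the signal plus 50, 2 probe sets passed (ADGRL3 and LOC781977, adjusted p = 0.0356), and with hybridisation spikes as a covariate 1 passed (AZGP1, adjusted p = 0.0108). The counts by the nominal criterion moved more. For probe sets higher in E2T, the count of 350 became 589 with 26 arrays, 580 with quantile normalization, 1365 with median centring, 1131 with array weights, 591 without both number 3 arrays and 848 without these and CO number 7. For probe sets lower in E2T, the count of 1435 became 642 with quantile normalization, 627 with median centring, 942 and 460 with the filters on maximum and on mean signal, 2377 with array weights and 915 with the spike covariate. For genes, 156 higher became 297 with 26 arrays, 688 with median centring, 611 with array weights, 329 without both number 3 arrays and 465 without these and CO number 7, and 462 lower became 260 with quantile normalization, 143 with median centring, 267 with the filter on mean signal and 937 with array weights. The filters test fewer probe sets, and the other causes were not tested. Probe sets without overlap numbered 8 above with median centring, and 11 and 10 below with quantile normalization and median centring.

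Over the fits without 1 array, probe sets higher ranged from 215 to 808 and lower from 1014 to 2509, and genes from 100 to 483 and from 321 to 867. The arrays that moved a count by over 1.5 times were E2T number 3 (808 and 2509 probe sets without it, 483 and 867 genes), E2T number 2 (215 higher, 100 genes), E2T number 6 (229 higher, 102 genes), CO number 6 (724 higher, 350 and 705 genes), E2T number 1 (103 genes higher) and CO number 1 (251 genes higher). Of the 76 genes described in the report that met the nominal criterion, none changed sign in any alternative fit of its own probe set. The criterion was met by 62 after quantile normalization, by 40 in all 14 fits without 1 array and by 22 in every such alternative.

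With the replicate number as a block, 723 probe sets were higher, with 394 genes, and the smallest adjusted p was 0.293. The numbers were not taken to pair the arrays, since the labels tie none to a cow and the deviations of same-numbered arrays correlated over 0.1 in only 3 of 7 pairs (-0.04 to 0.26 over all). E2T arrays correlated best with the CO array of their own number in 3 of 7 cases, so a shared cow behind some numbers cannot be told from these data.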
